A study of Mus musculus with 2 samples.

Results

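The costimulatory and death receptors of the tumour necrosis factor (TNF) receptor family, together with the death ligand gene Fasl, were followed in cultured mouse CD8+ T cells as a set of 10 genes. They were the probe sets whose platform gene symbol was exactly Tnfrsf4, Tnfrsf9, Tnfrsf18, Tnfrsf1a, Tnfrsf1b, Tnfrsf10b, Tnfrsf14, Cd27, Fas or Fasl, and all 10 were found among 22180 genes with a value. Each was read by 1 probe set. Both cultures began as naive CD8+ T cells stimulated with beads carrying antibodies to CD3 and CD28, with recombinant human interleukin-2 at 100 U/mL, and expansion ran to day 13. The bezafibrate culture had that fibrate, an agonist of the peroxisome proliferator-activated receptors (PPARs), at 30 µM throughout, and the control culture had its solvent, dimethyl sulfoxide (DMSO). Each culture gave 1 array, the labels name neither mouse strain nor age, and no value has a replicate error, so each ratio compares 2 arrays and no p-value is given.

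TNF receptor family proteins bind trimeric ligands of the TNF family and pass the signal on in either of 2 ways. Costimulatory receptors such as OX40, GITR and CD27 recruit TRAF adaptor proteins, which activate the NF-κB transcription factors and prolong the survival and expansion of T cells after antigen contact. Death receptors such as Fas carry an intracellular death domain that recruits FADD and caspase-8, and Fas ligand on cytotoxic T cells uses this route both to kill targets and to shrink T cell populations once a response is over.

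The deposited signals are on a log2 scale, and the log2 ratio is the bezafibrate value minus the DMSO value. The floor for a measurable gene was the median of all named genes, 4.88 with DMSO and 4.85 with bezafibrate, and a gene passed when the brighter of its values lay over the floor of its array. All 10 genes passed, on both arrays. They also lay above the background limit, the 95th percentile of 1394 olfactory and vomeronasal receptor genes, at 4.71 with DMSO and 4.68 with bezafibrate. Of the 9 CD8 T cell markers listed, 7 had a value. These 7 were above background on both arrays. Their signals were lower with bezafibrate by a median log2 ratio of −0.18, and the part of this shift in the receptor ratios was not tested.

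Most of the 10 genes differed little between the arrays. Fas was the lowest with bezafibrate, at a log2 ratio of −0.38, followed by Tnfrsf1a at −0.29 and Cd27 at −0.24, and Tnfrsf4 was the highest at 0.28. In all, 7 were lower and 3 higher, against 49.7% lower and 48.5% higher among the 11438 genes above the floor. Their median log2 ratio was −0.12 against 0 for all those genes. The 7 include Fasl at −0.002, and Fasl, Tnfrsf10b and Tnfrsf14 each changed sign under 1 alternative processing. At a limit of 1.2-fold, 2 genes were lower (Fas and Tnfrsf1a) and 1 was higher (Tnfrsf4), where 10.4% and 9.59% of genes above the floor passed in each direction. The counts of 2 and 1 in 10 genes are near that background. None of the 10 reached 1.5-fold, which 0.525% of genes passed downward and 0.664% upward, or 2-fold, which 0.0% and 0.0874% passed.

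Promoter sequences are shown for Fas and Tnfrsf4, the genes with the lowest and highest ratio, and for Tnfrsf9, whose window alone held a κB motif. They are the 250 bases before a transcript start, from RefSeq in build GRCm38.p6, 5′ to 3′ on the gene's strand. Capitals mark matches to the κB consensus or to the AP-1 motif TGANTCA, both searched on either strand.
Fas promoter, chr19:34290409-34290658, plus strand: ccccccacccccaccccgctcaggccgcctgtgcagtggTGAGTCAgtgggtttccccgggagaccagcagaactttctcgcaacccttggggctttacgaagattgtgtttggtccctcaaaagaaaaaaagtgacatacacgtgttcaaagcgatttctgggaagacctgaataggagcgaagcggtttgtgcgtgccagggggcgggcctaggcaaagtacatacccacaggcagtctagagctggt
Tnfrsf4 promoter, chr4:156013445-156013694, plus strand: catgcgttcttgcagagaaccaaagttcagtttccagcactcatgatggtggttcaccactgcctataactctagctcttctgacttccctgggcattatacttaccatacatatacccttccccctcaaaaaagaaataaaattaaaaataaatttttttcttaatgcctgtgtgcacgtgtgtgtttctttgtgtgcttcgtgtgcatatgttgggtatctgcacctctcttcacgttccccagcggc
Tnfrsf9 promoter, downstream start, chr4:150927749-150927998, plus strand: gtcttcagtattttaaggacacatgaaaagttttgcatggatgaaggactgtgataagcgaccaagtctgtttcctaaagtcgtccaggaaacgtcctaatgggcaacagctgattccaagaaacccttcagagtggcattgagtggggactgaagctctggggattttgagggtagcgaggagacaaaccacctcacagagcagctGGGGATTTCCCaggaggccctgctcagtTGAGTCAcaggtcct
In the Tnfrsf9 window the capitals hold overlapping κB matches from 43 to 33 bases before the start and an AP-1 match from 15 to 9 bases before it. The AP-1 match of Fas lay 211 to 205 bases before its start. Promoter windows were found for 9 of the 10 genes, 10 windows in all because Tnfrsf9 has 2 starts, and Tnfrsf10b had none. Of these 10 windows, 1 held the κB consensus and 2 the AP-1 motif, where 7.25% and 6.75% of 32851 promoter windows of the same length did. AGGTCA, the core site that PPARs bind, was in 0 of the 10 and in 14.0% of all windows, and its direct repeat with a spacer of 1 base was in 0 of the 10 and in 0.0335%. GGAAA, the core bound by NFAT, was in 8 of the 10 windows and in 55.6% of all. A match describes the letters of a window and says nothing of whether a factor binds there.

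The ratios of the inducible costimulators were small and differed in sign. Tnfrsf4 (probe set 17422859), which encodes OX40, a receptor that sustains effector T cells after activation, had a log2 level of 5.90 with DMSO and 6.18 with bezafibrate, 1.22-fold higher. Tnfrsf9 (probe set 17421981), which encodes CD137, a costimulator of activated CD8 T cells in particular, had 9.88 and 9.79, 1.07-fold lower. Tnfrsf18 (probe set 17422871), the gene of GITR, had 8.44 and 8.29, 1.10-fold lower. Of these 3 receptors only OX40 read higher with bezafibrate, and the other 2 were short of 1.2-fold. Among 2508 genes above the floor within 0.5 of its mean log2 level, 8.53% were at least as high in ratio as Tnfrsf4. Markers of CD4 or regulatory T cells, which can carry OX40 and GITR, were also higher with bezafibrate in 5 of 5 measured genes. Among genes above the floor 48.5% were higher. The median log2 ratio of the markers was 0.27. The largest ratios, 0.49 for Ikzf2 and 0.41 for Cd4, were of genes within background with DMSO, and Foxp3 had 0.07. Foxp3 (4.95 and 5.02) and Zbtb7b (5.22 and 5.49) were above background on both arrays and Ikzf2 with bezafibrate alone, whereas Cd4 and Cd40lg were within background on both. Summed on a linear scale these markers gave 109.4 and 130.9, and their part in the Tnfrsf4 ratio was not tested. A probe set that names both Tnfrsf18 and the predicted gene Gm16008 read 4.47 and 4.51, within background on both arrays, and was not used.

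**Figure D1:**
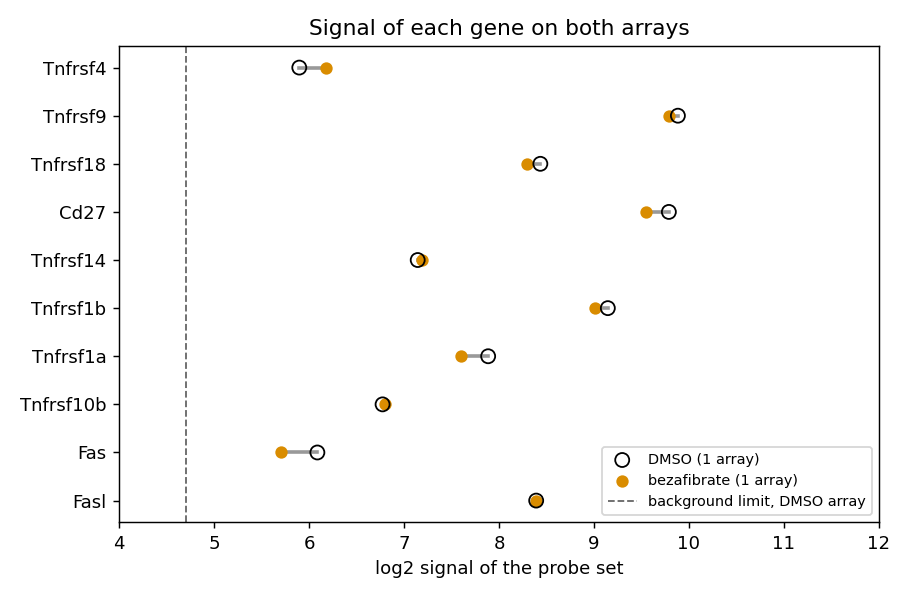
Log2 signal (x axis) of each gene on the DMSO array (open circles) and on the bezafibrate array (orange), with 1 array per group and no error bars. The dashed line is the background limit of the DMSO array, 4.71, and positions are to be compared within a row, since probe sets differ in efficiency. The longest bar is that of Fas (6.09 and 5.70), and the circles of Fasl coincide.

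Cd27 and Tnfrsf14 are present on resting T cells as well. Cd27 (probe set 17471073), whose product binds CD70 and supports priming and memory, had a log2 level of 9.79 with DMSO and 9.54 with bezafibrate, 1.19-fold lower. Of 579 genes within 0.5 of its level, 8.12% were at least as low in ratio. Tnfrsf14 (probe set 17433683), which encodes HVEM, the receptor for LIGHT and a binding partner of the inhibitory receptor BTLA, had 7.14 and 7.18, a ratio of 0.04. The pair therefore differed in sign, with Cd27 just short of the 1.2-fold limit and Tnfrsf14 nearly equal on the 2 arrays.

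Of the receptors for TNF itself, 1 passed 1.2-fold. Tnfrsf1a (probe set 17463184), the gene of TNFR1, which carries a death domain and can signal either inflammation or cell death, had a log2 level of 7.89 with DMSO and 7.60 with bezafibrate, 1.22-fold lower. Tnfrsf1b (probe set 17432674), the gene of TNFR2, which lacks a death domain and acts as a costimulator on T cells, had 9.15 and 9.01, 1.10-fold lower. Ratios at least as low were held by 6.50% of 2263 genes of like level for Tnfrsf1a and by 21.9% of 1052 for Tnfrsf1b. In the deposited values TNFR1 was thus the more displaced of the 2 TNF receptors, with a ratio of −0.29 beside −0.14 for TNFR2. After subtraction of the median ratio of genes similar in level and length the 2 were closer, at −0.25 and −0.20.

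The other death receptors differed from each other. Fas (probe set 17358797), the receptor that removes activated T cells, had a log2 level of 6.09 with DMSO and 5.70 with bezafibrate, 1.31-fold lower. Of 2543 genes of like level, 4.36% had a ratio as low or lower, and over all genes above the floor Fas lay at percentile 3.55. Tnfrsf10b (probe set 17301697), the death receptor for TRAIL in the mouse, had 6.77 and 6.80, a ratio of 0.03. Fasl (probe set 17228864), which encodes the ligand of Fas on cytotoxic cells, had 8.39 on both arrays, a ratio of 0.00. Within this pair the receptor gene was lower with bezafibrate and the ligand gene read the same.

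**Figure D2:**
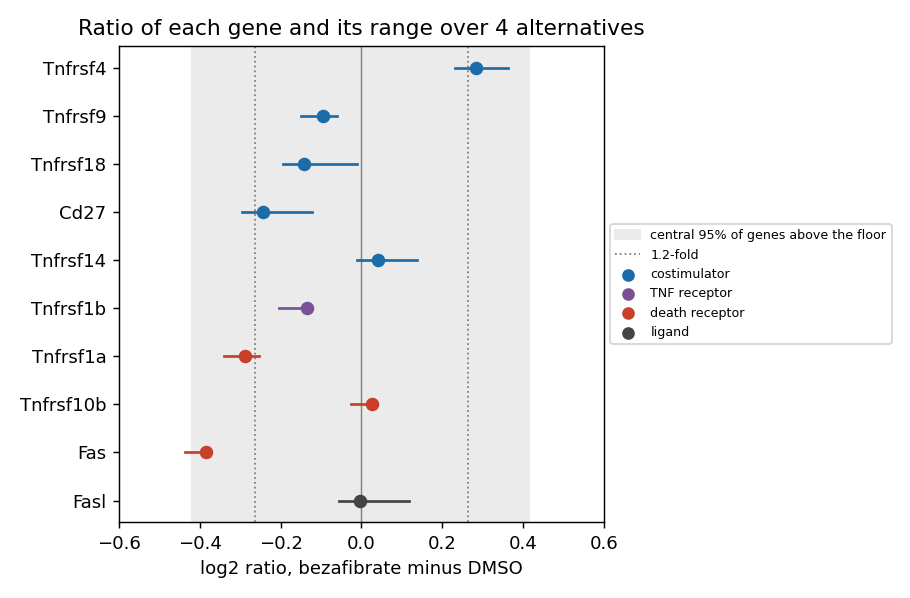
Log2 ratio of bezafibrate over DMSO (x axis) for each gene, coloured by role. Points are the deposited values, horizontal lines span the 4 alternatives that could move a ratio, the grey band holds the central 95% of genes above the floor (−0.42 to 0.41) and dotted lines mark 1.2-fold. With the deposited values all 10 points lie inside the band, and Fas, at −0.38, is nearest its lower edge.

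Each gene had 1 probe set of its own, so the 3 alternatives on the choice of probe set gave back the deposited ratio. Over the other 4 alternatives the ratio of Fas ran from −0.44 to −0.37, that of Tnfrsf1a from −0.34 to −0.25 and that of Tnfrsf4 from 0.23 to 0.36. Fas thus passed 1.2-fold in each of the 4, whereas Tnfrsf4 fell short of it after housekeeping centring, where Cd27 passed at −0.30, and Tnfrsf1a after subtraction of the trend with level and length. Other ratios were less settled. In genes above the floor, ratio and gene length had a Spearman's rho of 0.28 across genes, which are not independent replicates, so short genes tended to be lower with bezafibrate. The 10 genes had a median length of 11447.5 bp against 19968.5 bp for genes above the floor. After subtraction of the median ratio of genes similar in level and length, Cd27, a short gene of 4517 bp, moved from −0.24 to −0.12, and Tnfrsf18, of 2573 bp, moved from −0.14 to −0.01. The same step took Fasl from 0.00 to 0.12 and the median of the 10 from −0.12 to −0.07. Fas, at 37129 bp the longest of the 10, went to −0.41, and Tnfrsf4, at 3019 bp, went to 0.36. Both thus stood against the trend with length. Tnfrsf10b and Tnfrsf14 turned to −0.03 and −0.01 when the arrays were centred on 11 housekeeping genes, a step that lowered the median of all genes above the floor by 0.05.

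**Figure D3:**
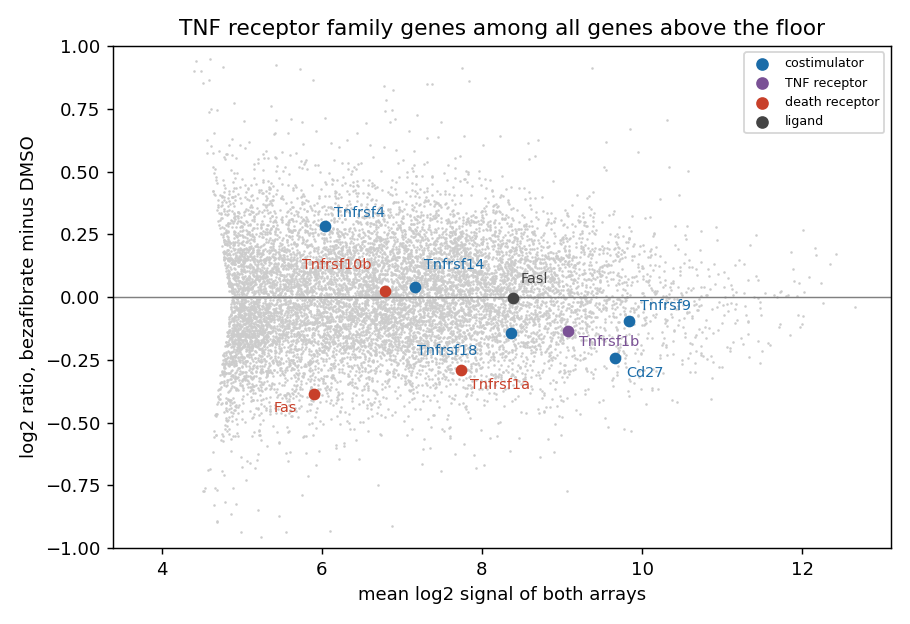
Log2 ratio of bezafibrate over DMSO (y axis) against the mean log2 signal of both arrays (x axis) for the 11438 genes above the floor (grey, 10 of them beyond the axis limit of 1) and the TNF receptor family genes and Fasl (coloured by role). The named genes lie within the cloud of genes of like level, with Fas at its lower side (−0.38) and Tnfrsf4 at its upper side (0.28).

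Ligands and binding partners of these receptors also differed little. Of 10 such genes, 6 were lower and 4 higher. Above the floor 4 were lower and 4 higher, where 49.7% and 48.5% of all genes above the floor were. The median log2 ratio was −0.14 over all 10 and −0.02 for the 8 above the floor. Tnf, the ligand of both TNF receptors, had a log2 level of 10.21 with DMSO and 10.05 with bezafibrate, 1.12-fold lower. Lta, whose product binds the same receptors, had 8.67 and 8.75. Tnfsf10, the gene of TRAIL, had 7.15 and 7.23, a ratio of 0.08 beside the 0.03 of its receptor gene Tnfrsf10b. Of Tnf and its 2 receptor genes, Tnfrsf1a alone passed 1.2-fold.

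The genes of the HVEM partners were all short of 1.2-fold. Tnfsf14, which encodes its ligand LIGHT, had 5.02 with DMSO and 5.26 with bezafibrate, a ratio of 0.24, and Btla had 6.98 and 7.18, a ratio of 0.19. Cd160, another HVEM-binding receptor, had 7.61 and 7.38, a ratio of −0.23. Among ligands of the costimulators, Tnfsf4, the OX40 ligand gene, had 6.07 and 5.96, opposite in sign to Tnfrsf4. Tnfsf9, the ligand gene of CD137, had 4.93 and 4.67, the second within background. Cd70 and Tnfsf18, the ligand genes of CD27 and GITR, were within background on both arrays, at 3.01 and 2.74 for Cd70 and at 1.74 and 1.57 for Tnfsf18.

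Of 19 other receptors of the family, 7 were lower and 11 higher, and 14 were above the floor. Of those 14, 6 were lower and 8 higher, where 49.7% and 48.5% of all genes above the floor were. The median log2 ratio of all 19 was 0.05. Tnfrsf13c, the gene of the BAFF receptor of B cells, was the lowest, with a log2 level of 6.99 with DMSO and 6.45 with bezafibrate, 1.46-fold lower. Of the 6 B cell markers listed, 5 had a value, with signals between 3.23 and 9.05 with DMSO and between 3.07 and 8.72 with bezafibrate. Only Cd79b (ratio −0.55) and Ighm (−0.33) among them were above background, both lower with bezafibrate, whereas Ms4a1, Cd79a and Pax5 were within background on both arrays. Summed on a linear scale the B cell markers gave 617.2 and 495.3. Most of both sums came from Ighm (9.05 and 8.72), read by the brightest of its 7 probe sets. The part of the B cell markers in the Tnfrsf13c ratio was not tested. Dendritic cell markers, 6 of 6 measured, gave sums of 618.2 and 472.5, with 4 lower and 1 higher. Of these 6, 4 were within background on both arrays, and Zbtb46 was above background with DMSO alone. Most of both sums came from Cd209a, with a ratio of −0.45, read by the brighter of its 2 probe sets. Macrophage markers gave 188.7 and 190.0. Natural killer cell markers, 4 of 6 measured, gave 146.2 and 105.7, with 1 lower, 2 higher and a median log2 ratio of 0.03. The lower sum thus rested on Fcer1g alone, which had 6.57 with DMSO and 5.64 with bezafibrate, a ratio of −0.93. In a bulk sample, fewer cells of a type and less RNA per cell cannot be told apart.

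Tnfrsf11a, which encodes the receptor RANK, had 7.05 with DMSO and 6.75 with bezafibrate, and was the second of the other receptors lower by at least 1.2-fold. That count of 2 among 14 above the floor is near the 10.4% of all genes above the floor that passed downward. Relt, an orphan receptor, had a ratio of −0.17. Ltbr, the lymphotoxin β receptor gene, had −0.09 and Tnfrsf25, a death domain receptor of T cells, −0.08. The 3 highest ratios above the floor were 0.18 each for Cd40, Ngfr and Tnfrsf11b, none of them at 1.2-fold. Tnfrsf8, the CD30 gene, read 4.63 and 4.81, below the floor on both arrays. The receptors highest in ratio outside the 10 genes were therefore closer to 0 than Tnfrsf4.

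Of 9 other TNF family ligands listed, 7 had a value and 3 were above the floor. Ltb, whose product forms the membrane lymphotoxin complex, had a log2 level of 9.28 with DMSO and was 1.22-fold lower with bezafibrate, a ratio of −0.29. Tnfsf8, the CD30 ligand gene, had 8.85 and 9.01, and Tnfsf11, the gene of RANK ligand, had 6.25 and 6.36. Ligand and receptor genes of the RANK pair thus differed in sign, as did those of OX40.

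**Figure D4:**
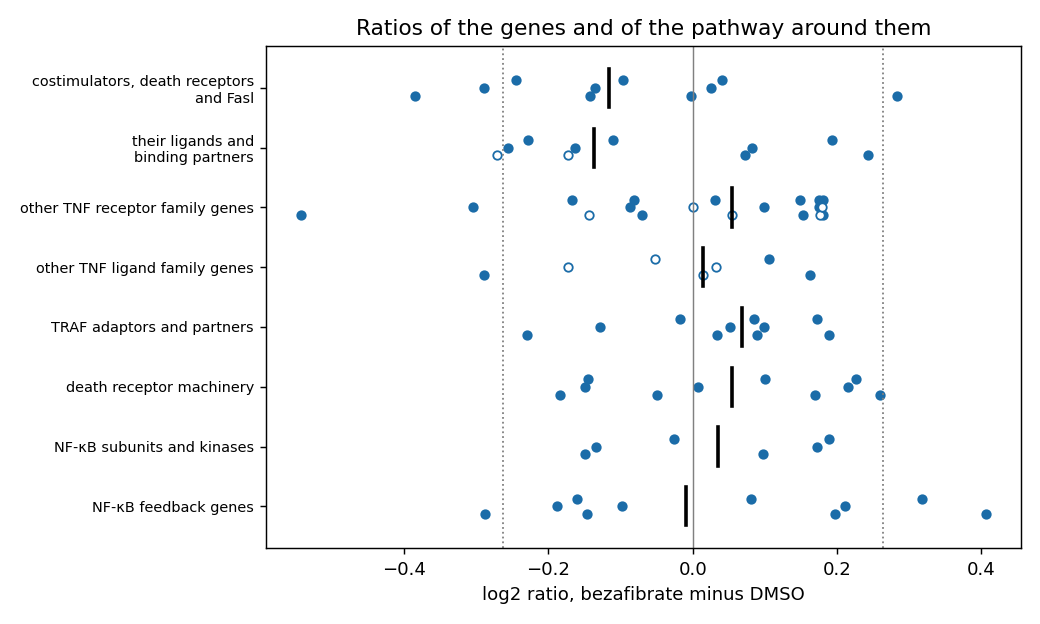
Log2 ratio of bezafibrate over DMSO (x axis) for each measured gene of 8 groups (rows). Filled points are above the floor, open points are not, black bars are medians over all measured genes of a row and dotted lines mark 1.2-fold. The medians run from −0.14 for ligands and binding partners to 0.07 for TRAF adaptors, and the point farthest left is Tnfrsf13c at −0.54.

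Adaptors downstream of the receptors had ratios between −0.23 and 0.19. Of 12 TRAF adaptors and partners listed, 10 had a value, 7 of them higher and 3 lower. Among all genes above the floor 48.5% were higher and 49.7% lower. The median log2 ratio was 0.07, and 0 passed 1.2-fold in either direction. Of all genes above the floor, 9.59% passed upward and 10.4% downward, so 0 in 10 genes is near that background. Traf1, which is induced by NF-κB and binds CD137, had a log2 level of 7.62 with DMSO and 7.71 with bezafibrate, and Traf2, its partner in costimulatory signalling, had 7.11 and 7.09. The highest were Birc2 at 0.19, a ubiquitin ligase of TRAF complexes, Traf6 at 0.17 and Traf5 at 0.10. The lowest were Tradd at −0.23, which links TNFR1 to its effectors, and Traf4 at −0.13, followed by Traf2 at −0.02.

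The death receptor machinery had 10 of 12 listed genes measured, 6 higher and 4 lower, against 48.5% and 49.7% of all genes above the floor. The median ratio was 0.05, and 0 passed 1.2-fold, near the 9.59% upward and 10.4% downward of all genes above the floor. Fadd, the adaptor between Fas and caspase-8, had a log2 level of 5.96 with DMSO and 5.77 with bezafibrate. Casp8, the initiator caspase, had 10.81 and 10.82, and Cflar, the gene of its inhibitor cFLIP, had 6.82 and 6.99. Along this route only Fas itself passed 1.2-fold, with Casp8 equal to within 0.01 and Cflar at 0.17. The highest were Xiap, a caspase inhibitor gene, at 0.26, and the necroptosis genes Ripk3 at 0.23 and Mlkl at 0.22. After Fadd at −0.18 the lowest were Bid at −0.15, whose product carries the Fas signal to mitochondria, and Daxx at −0.14.

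NF-κB genes showed no common direction. Of 8 subunits and kinases listed, 6 had a value, 3 higher and 3 lower, and the median ratio was 0.04. Rel had a ratio of 0.19, Ikbkg 0.17 and Ikbkb 0.10, and Nfkb2 had −0.15, Relb −0.13 and Rela −0.03. Relb and Nfkb2, the noncanonical subunits, which act downstream of CD27 and OX40 among others, were thus lowest of the 6 measured. Ratios at least as low were held by 24.8% and 22.9% of genes of like level. Nfkb1 and Chuk had no value. Of 10 feedback genes, 5 were higher and 5 lower, near the 48.5% and 49.7% of all genes above the floor. Their median ratio was −0.01. Cyld, a deubiquitinase that restrains TNF receptor signalling, had a log2 level of 7.17 with DMSO and 7.57 with bezafibrate, 1.33-fold higher, and Tnip2 had a ratio of 0.32. Nfkbib was 1.22-fold lower. Otulin, a second deubiquitinase gene of these complexes, had a ratio of 0.21. Nfkbia and Tnfaip3, the inhibitors most directly induced by NF-κB, had ratios of 0.08 and −0.15, and Bcl3 and Tnip1 had −0.19 and −0.16.

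In the RefSeq gene order of GRCm38.p6, Tnfrsf4 and Tnfrsf18 are consecutive protein-coding genes on chromosome 4, the only members of the 10 that adjoin, with ratios of 0.28 and −0.14, so the neighbours differed in sign. Cd27, Ltbr and Tnfrsf1a lie within 5 protein-coding genes of each other on chromosome 6, with ratios of −0.24, −0.09 and −0.29. Scnn1a, between Ltbr and Tnfrsf1a, had 0.15 below the floor, and Tapbpl, on the other side of Cd27, had −0.02. Tnfsf18 and Tnfsf4 lie beside Fasl on chromosome 1, with Fasl at 0.00 and Tnfsf4 at −0.11. Acta2, beside Fas on chromosome 19, had log2 levels of 6.35 and 6.07, a ratio of −0.29, and Stambpl1, the gene after it, had 0.01.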

How the data were processed

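The authors deposited 1 log2 signal per probe set and array. Per the submitters' processing notes, RMA and Affymetrix Expression Console were used. Their versions and the genome build are not given here. RMA equalises arrays, so a change shared by most genes is removed before deposit. The platform annotation named exactly 1 gene for 23521 probe sets, and the brightest stood for a gene. Ratios were bezafibrate minus DMSO. Folds of 1.2 and 1.5 served as limits for counting, with 2 as an alternative.

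The 10 genes, 7 related lists (80 genes, 72 with a value) and limits were chosen with earlier results of these data known. Named were all 10 genes, all ligands, a fixed set of 11 genes, and of each other list the 3 highest and 3 lowest ratios above the floor; gene-order neighbours were chosen after their values were seen. Alternatives were quantile normalization, housekeeping centring, loess on level (span 0.3), a level and length trend in 10 by 10 classes, other probe set rules and floors. Gene length came from RefSeq (99.8% of genes). The number of arrays limits the precision. Calculations used Python 3.11.15, numpy 2.4.6, pandas 2.3.3, scipy 1.17.1, statsmodels 0.14.6 and matplotlib 3.10.9. The code was tested on simulated data with changes of 2-fold or more, which does not show how well smaller ratios would repeat.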

Additional observations from a re-analysis of the deposited data

How the results depend on the processing

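A value counted as stable when it moved by less than the robust SD of the ratios of silent receptor genes (0.30), a median by less than the standard error that this SD gives a median of that many genes, and a count when it stayed within 1.5 times. By that measure every one of the 10 ratios and every list median was stable under the alternatives run, of which the 3 on the choice of probe set could not move the 10 ratios. That SD is a wide limit, since of the 10 ratios Fas alone (−0.38) exceeds it. The limit for a median is wide as well. The median of ligands and partners counted as stable though it went from −0.14 to −0.02 above the floor. Some medians changed sign and still counted as stable. That of the NF-κB feedback genes went from −0.01 to 0.08 with the level and length trend subtracted. That of the NF-κB subunits and kinases went from 0.04 to −0.02 with housekeeping centring. Of the counts at 1.2-fold, 12 were not stable. With housekeeping centring, the 10 genes had 0 higher, their ligands and partners 3 lower and the TRAF list 1 lower. With the level and length trend subtracted, the 10 genes had 1 lower (Fas), the ligands and partners 1 higher, the other TNF ligands 0 lower, the death machinery 1 higher and the NF-κB feedback genes 0 lower. With loess on level, the ligands and partners had 1 higher and 0 lower. They had 0 lower when only genes above either floor were kept. Counts at 1.5-fold and 2-fold were 0 for the 10 genes. No paired analysis was possible because each group has 1 array.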
